A study of Mus musculus with 72 samples.

Results

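The genes described here are the cytochrome P450s of families 1, 2 and 3 in mouse liver. They are every symbol of the liver count table made of Cyp, a family number from 1 to 3, a subfamily letter and a gene number, which gave 48 of 22823 genes. All 48 passed the filter on low counts and were among the 20249 genes tested. A further 31 P450 symbols of the table fall outside the rule, among them Cyp3a41a and Cyp3a41b, whose names end in a letter. The study fed C57BL/6 mice either a diet lacking methionine and choline (MCD, TD.220158) or its control with the same energy content (TD.220157) for 11 days, in light and dark for 10 days and in constant darkness on day 11. Mice of 8 to 12 weeks were killed at circadian times (CT) 0, 4, 8, 12, 16 and 20 h, and RNA from a piece of the left liver lobe was sequenced. Each of the 12 groups of diet and time holds 3 libraries, labelled as 2 males and 1 female, which gives 12 male and 6 female libraries on each diet. All groups share the strain, the lighting and free access to food, and no transgene or drug is named. The protocol speaks of male mice, while the sample labels name females. All females carry the replicate number 3, so sex and that number cannot be told apart. Nothing ties a library to a litter, and p-values measure the spread between these libraries.

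The cytochrome P450s of these families are haem enzymes, mainly of the endoplasmic reticulum, that insert 1 atom of oxygen into their substrates. There electrons are passed on by the reductase Por and by cytochrome b5. Families 1 to 3 hold most of the enzymes by which the liver clears drugs, pollutants and steroid hormones. Family 1 is best known as a target of the aryl hydrocarbon receptor, Cyp2b and Cyp3a genes as targets of the receptors CAR and PXR. In rodent liver many genes of the Cyp2a, 2b, 2c, 2d and 3a subfamilies differ between the sexes, a pattern set by the rhythm of growth hormone secretion.

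Library totals ran from 52.6 M to 86.7 M counts. Levels are in CPM, which scales each count to a common library size (here with TMM factors), and changes are log2 values with standard errors (SE) from edgeR's quasi-likelihood test, called at an adjusted p under 0.05. The tissue carried hepatocyte markers throughout: 8 genes such as Alb and Apoa1 summed to 62328 CPM in the lowest library, while 5 lymphocyte and neutrophil genes summed to at most 12.8 CPM. Both values are from the MCD male numbered 1 at CT4, 1 of the libraries that stood apart, as given below. Whole tissue, not sorted cells, was sequenced, so fewer cells of a type and less RNA per cell cannot be told apart. One of the 2 control male libraries at CT8, called library a here because the 2 share a column name, stood apart: 25 of the 48 P450s were below and 10 above the range of the other 11 control males, and 26 of these 35 values lay inside the range of the MCD males. That range is widened by 2 MCD males described next. Against the other 10 MCD males, Cyp2c50 (64.1 CPM in library a, 312 to 596 in the 10) and Cyp2d9 (217, 469 to 824) lay outside. Cyp3a11 (2576, 1246 to 2977) and Cyp2c29 (207, 157 to 438) lay inside. The TMM factor of library a was 1.18, where the other 17 control libraries had 0.841 to 0.986. It also had the highest summed macrophage markers of the control males, 691 CPM, and the lowest summed pericentral markers, 448 CPM. On MCD, 2 males stood apart, number 1 at CT4 and number 2 at CT12: both were below the range of the other 10 MCD males in 22 of the 48 genes and above it in 3. Cyp2c54 was 5.05 and 4.12 CPM in them against 46.6 to 157 CPM in the other 10, and Cyp2c50 was 84.1 and 51.7 against 312 to 596 CPM. They had the highest TMM factors, 1.28 and 1.27, macrophage markers of 817 and 829 CPM and pericentral markers of 908 and 906 CPM, where MCD males ran from 377 to 829 and from 906 to 1968 CPM. Their stellate cell markers summed to 822 and 768 CPM, beside an MCD male mean of 433 CPM. Library a had 634 CPM of these, beside a control male mean of 328 CPM. Hepatocyte markers summed to 62328 and 66008 CPM in the 2 MCD males, where the MCD male mean was 101634 CPM. Endothelial markers were 286 and 272 CPM, beside a mean of 303 CPM. The part of these differences in the results was not tested. The counts of genes outside these ranges were made for the 48 P450s only, so no share of all genes stands beside them. Fits without the 2 MCD males, and without these and library a, were added after the data were seen; they called 32 and 34 P450s for diet, against 43.6% and 47.5% of all genes, and the other counts that moved by more than 1.5 times are given with their results. Libraries also fell into 21 with low and 15 with high counts of the mitochondrial transcript mt-Nd6, and a fit with this split as a term called 34 P450s for diet (44.1% of all genes), as many as without it. The low class held 8 control and 13 MCD libraries, the high class 10 and 5. Other counts moved: 36 in males (35 without the term), 19 in females (21), 12 at CT12 (15) and 10 for sex on MCD (12). The shares of all genes in that fit were 37.5%, 23.2%, 16% and 2.05%.

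The 48 genes took 1.53% ± 0.244 (SD, n = 12) of the counts in control males and 1.86% ± 0.263 (SD, n = 6) in control females. On the MCD diet the shares were 1.69% ± 0.279 in males and 2.03% ± 0.195 in females. Without library a the control male share was 1.57% ± 0.214 (SD, n = 11). Between the diets the mean share differed by less than 1 SD in either sex. By mean level Cyp2e1 and Cyp3a11 stood first, 45 genes were at 1 CPM or more, and Cyp1b1, Cyp2s1 and Cyp3a57 were below 1 CPM. Compared per kilobase of all annotated exons, Cyp2e1, which oxidises ethanol and other small molecules, led with 2271 CPM per kb. Cyp2f2 followed with 479, Cyp2d26 with 419, Cyp2d10 with 405.5, Cyp3a11 with 362 and Cyp2a5 with 356 CPM per kb. This order depends on the length used: per kilobase of the longest transcript Cyp2e1 still led, with 2673, but Cyp3a11 came next with 787 and Cyp2f2 after it with 520 CPM per kb. Most members sit in gene clusters. In GENCODE M21 (GRCm38) the 4 Cyp2a genes span chr7:26307169-27037375, the 3 Cyp2b genes chr7:25897620-26210661 and the 3 Cyp2j genes chr4:96516138-96664154. The 13 Cyp2c genes lie on chromosome 19, 8 of the 9 Cyp2d genes on chromosome 15 and the 7 Cyp3a genes on chromosome 5, with Cyp2d13 not matched.

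**Figure D1:**
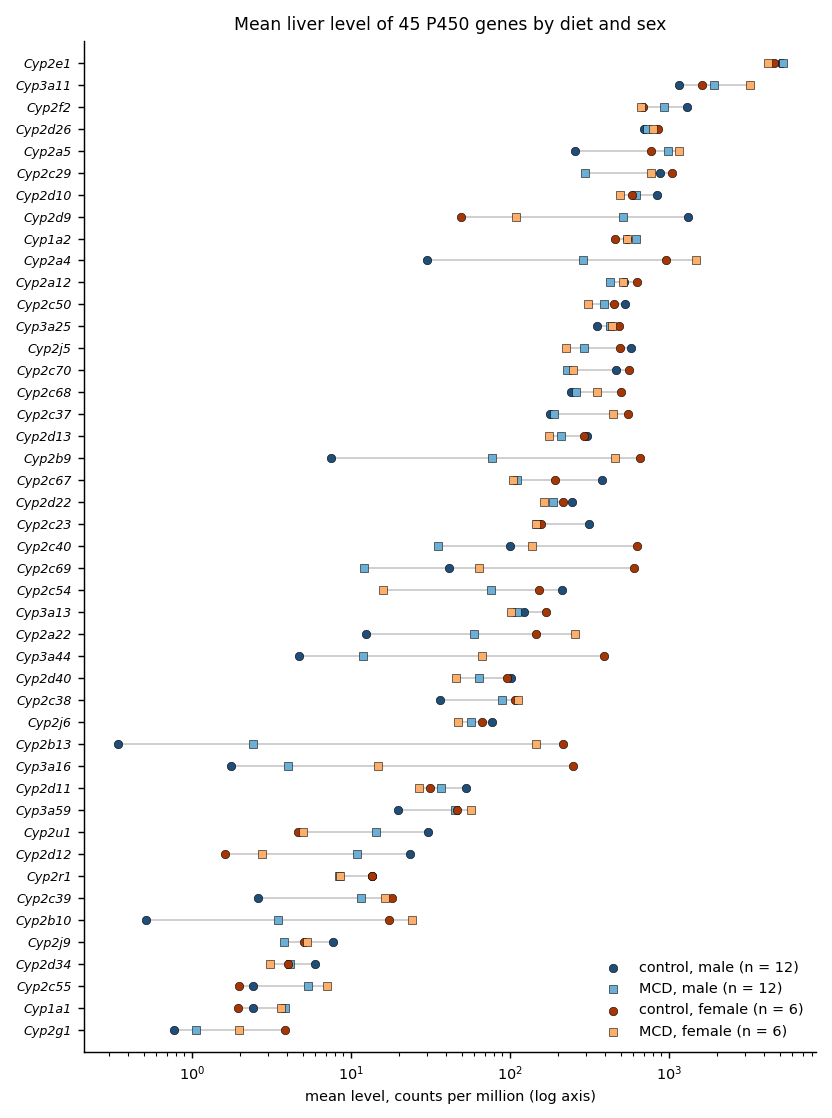
Mean level in CPM (log axis) of the 45 P450 genes with a mean of 1 CPM or more, ordered by their mean over 36 libraries; circles are control and squares MCD, blue males (n = 12) and orange females (n = 6). Cyp2e1 has its 4 means close together, while Cyp2b9, Cyp2b13, Cyp2a4, Cyp3a44 and Cyp3a16 differ more than 10-fold between their lowest and highest means.

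On the control diet the P450s of families 1 to 3 divided by sex. Of the 48, 26 were called between the sexes, against 9.87% of all genes tested. Females had the higher level in 19 (5.36% of all genes) and males in 7 (4.51% of all genes). The median log2 difference, female minus male, was 0.29 over the 48 and 0.01 over all genes. The female side held all 4 Cyp2a genes, all 3 Cyp2b genes, 5 of 7 Cyp3a genes, 6 of 13 Cyp2c genes and Cyp2g1. The male side held 3 of 9 Cyp2d genes, Cyp2c23, Cyp2c67, Cyp2f2 and Cyp2u1. Without library a and the 2 MCD males that stood apart 34 were called, against 17% of all genes, 21 higher in females and 13 in males. Cyp2d10, at -0.52 with an adjusted p of 0.05 and -0.61 in that fit, was among those added. Markers of other cell types and of liver zones also differed with sex on this diet: of 9 macrophage markers 4 and of 6 pericentral markers 2 were called, all higher in females. The macrophage markers summed to 499 CPM on average in control females (403 to 644) and 362 CPM in control males (282 to 691), the pericentral markers to 1865 and 1141 CPM. Their part in the sex differences of the P450s was not tested.

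The Cyp2b genes, phenobarbital-inducible steroid and drug hydroxylases, were far higher in females. Cyp2b9 lay between 562 and 731 CPM in the 6 control females (median 669) and between 0.119 and 38.8 CPM in the 12 control males (median 0.805). Cyp2b13 lay between 138 and 330 CPM in control females and at no more than 1.70 CPM in control males. Cyp2b10 was lower, 17.5 ± 17.8 CPM (SD, n = 6) in females and 0.512 ± 0.781 CPM (SD, n = 12) in males. None of the 3 overlapped between the sexes, which held for 18 of the 48 P450s and for 1.74% of all genes. The log2 difference was 8.23 ± 0.91 (SE) for Cyp2b9 (adjusted p = 7.2e-07), 9.50 ± 0.60 for Cyp2b13 (adjusted p = 5.4e-11) and 5.21 ± 0.71 for Cyp2b10 (adjusted p = 1.3e-05).

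Of the Cyp3a genes, steroid and drug hydroxylases, Cyp3a44 and Cyp3a16 were the most divided. Cyp3a44 lay between 324 and 471 CPM in control females and between 0 and 15.4 CPM in control males, a log2 difference of 6.49 ± 0.81 (adjusted p = 4.6e-06). Cyp3a16 lay between 163 and 393 CPM in control females, and 7.77 CPM was the highest of the control males, where the median library had none (7.83 ± 1.15, adjusted p = 4.2e-05). Cyp3a59 was 46.7 CPM in females and 19.9 CPM in males (1.28 ± 0.18, adjusted p = 1.3e-05). Cyp3a13 (0.46 ± 0.09) and Cyp3a25 (0.46 ± 0.14, adjusted p = 0.041) differed little, and the Cyp3a25 call was lost in 20 of 36 fits that each left out 1 library, library a among them (adjusted p = 0.056).

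Among male libraries these traces were not even. Cyp3a44 was at 5.59 to 9.11 CPM in the 5 control males numbered 1 and at 0 in 4 of the 5 numbered 2. The 2 highest Cyp2b9 values, 38.8 and 38.6 CPM, were the number 1 males at CT0 and CT12. Xist, which marks female cells, reached 2.93 CPM in a male library against a mean of 1223 CPM in control females, or 0.24% of it. It too split by number: in control males it had a median of 2.39 CPM in number 1 (0.0906 to 2.68) and lay between 0.202 and 0.385 CPM in number 2, and in MCD males it lay between 1.41 and 2.93 CPM in number 1 and between 0.176 and 0.494 CPM in number 2. Library a had 2.45 and library b 0.235 CPM. The highest control male numbered 1 had 5.91% of the female control mean of Cyp2b9. The median of those 5 males was 1.94 CPM of Cyp2b9, and the number 2 males lay between 0.119 and 1.27 CPM. What sets the male numbers apart was not tested.

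The Cyp2a genes, coumarin and steroid hydroxylases, were higher in females by unequal amounts. Cyp2a4, a testosterone 15-alpha-hydroxylase, was 962 ± 356 CPM (SD, n = 6) in control females and 30.3 ± 72.5 CPM (SD, n = 12) in control males. Library a alone held 258 CPM, and without it the male mean was 9.56 ± 10.7 CPM (SD, n = 11). Cyp2a22 was 146 against 12.5 CPM, Cyp2a5 775 against 259 CPM and Cyp2a12 636 against 526 CPM. The log2 differences were 6.74 ± 0.71 for Cyp2a4 (adjusted p = 2.9e-07; 7.14 without library a), 3.53 ± 0.20 for Cyp2a22 (adjusted p = 5.5e-12), 1.98 ± 0.17 for Cyp2a5 (adjusted p = 4.3e-09) and 0.28 ± 0.09 for Cyp2a12, whose call was lost in 14 of 36 fits without 1 library. In the Cyp2c subfamily, whose enzymes hydroxylate steroids and oxidise fatty acids, Cyp2c69 (602 against 41.8 CPM, 3.87 ± 0.25, adjusted p = 5.0e-11) was the most divided, followed by Cyp2c39 (18.2 against 2.61 CPM, 2.84 ± 0.19) and Cyp2c40 (634 against 99.7 CPM, 2.72 ± 0.18), both with an adjusted p of 5.4e-11. Cyp2c37 (1.67 ± 0.40, adjusted p = 0.0065), Cyp2c38 (1.59 ± 0.26, adjusted p = 0.00013) and Cyp2c68 (1.06 ± 0.13, adjusted p = 1.7e-06) were also higher in females. Cyp2g1 was 3.88 CPM in females and 0.771 CPM in males (3.03 ± 0.48, adjusted p = 9.2e-05).

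Cyp2d9, a testosterone 16-alpha-hydroxylase, was the leading male gene. It lay between 29.3 and 67.6 CPM in control females and between 1010 and 1760 CPM in control males other than library a, which held 217 CPM. The log2 difference, female minus male, was -4.76 ± 0.47 (adjusted p = 9.0e-08). Cyp2d12 (1.63 against 23.8 CPM, -3.82 ± 0.50, adjusted p = 7.3e-06) and Cyp2u1, a fatty acid hydroxylase (4.69 against 30.6 CPM, -2.77 ± 0.29, adjusted p = 2.2e-07), were also far lower in females. Smaller differences were those of Cyp2c23 (-1.03 ± 0.15, adjusted p = 1.7e-05), Cyp2c67 (-0.94 ± 0.17), Cyp2f2 (-0.92 ± 0.13) and Cyp2d11 (-0.75 ± 0.19).

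The RefSeq windows of 250 bases before the start sites are printed for 3 of these genes, because Cyp2a4 and Cyp2a5 lie in 1 cluster and differ in the size of their sex difference and Cyp2d9 is the leading male gene. Capitals mark TATAAA, the TATA box, and GTTAAT, part of an HNF1 site, on either strand (GRCm38.p6, all on the plus strand, 5′ to 3′; chr7:26306942-26307191, chr7:26835089-26835338 and chr15:82452127-82452376).
Cyp2a4: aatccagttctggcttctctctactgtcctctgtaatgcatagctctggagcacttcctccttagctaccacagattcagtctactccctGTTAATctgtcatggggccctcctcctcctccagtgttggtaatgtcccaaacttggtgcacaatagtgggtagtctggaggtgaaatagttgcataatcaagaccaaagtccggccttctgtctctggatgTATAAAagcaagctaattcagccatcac
Cyp2a5: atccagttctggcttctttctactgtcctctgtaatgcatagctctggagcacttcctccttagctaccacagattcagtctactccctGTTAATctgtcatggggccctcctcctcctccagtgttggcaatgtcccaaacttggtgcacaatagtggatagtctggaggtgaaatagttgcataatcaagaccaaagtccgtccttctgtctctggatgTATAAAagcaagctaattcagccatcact
Cyp2d9: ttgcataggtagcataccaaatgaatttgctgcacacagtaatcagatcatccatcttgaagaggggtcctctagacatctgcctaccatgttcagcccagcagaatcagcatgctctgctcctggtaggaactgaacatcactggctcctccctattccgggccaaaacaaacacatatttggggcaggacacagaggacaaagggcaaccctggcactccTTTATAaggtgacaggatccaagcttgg
Shifted by 1 base, the Cyp2a4 and Cyp2a5 windows differed at 4 of 249 positions. The TATA box began 28 bases before the start in Cyp2a4 and Cyp2d9 and 29 before it in Cyp2a5, and the HNF1 motif 160 and 161 bases before it in Cyp2a4 and Cyp2a5. In control males at CT0 the number 2 library had 0.848 CPM of Cyp2a4 beside 36.5 CPM of Cyp2a5, while the MCD male numbered 2 at CT12 had 1639 and 1757 CPM and the control female at CT12 had 1451 and 1339 CPM. The ratio of the 2 genes was thus not fixed across libraries.

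RefSeq held 42 windows for 40 of the 48 genes. TATAAA on either strand was found in 21 of the 42 (50%), against 12.4% of all 32851 windows, and GTTAAT in 6 (14.3%, against 6.43%). The core of the aryl hydrocarbon receptor site, GCGTG, was in 5 (11.9%, against 28.2%): Cyp1a1, Cyp1b1, Cyp2b10, Cyp2c68 and Cyp2j9. The D-box TTANGTAA was in the Cyp2c38 window and the E-box CACGTG in the Cyp2j6 window. TTCNNNGAA, the STAT5 site, was in none of the 42 and in 7.02% of all windows. These are matches of letters in a short window and not sites of binding. The 42 windows are also not independent. Cyp3a25 is counted with overlapping windows, and those of Cyp2a4 and Cyp2a5 differ at 4 of 249 positions. Both of these hold GTTAAT, as do the related Cyp2c40, Cyp2c68 and Cyp2c69.

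In males, compared over the same 12 control male libraries as the sexes were, the MCD diet changed 35 of the 48 P450s, against 39.6% of all genes. It raised 14 (22.2% of all genes) and lowered 21 (17.4% of all genes). The median log2 change was -0.09 over the 48 and 0.02 over all genes. All 3 Cyp2b genes, 3 of 4 Cyp2a genes, 3 of 13 Cyp2c genes and 3 of 7 Cyp3a genes rose. Lower in MCD males were 7 of 9 Cyp2d genes, 7 of 13 Cyp2c genes, all 3 Cyp2j genes, Cyp2a12, Cyp2f2, Cyp2r1 and Cyp2u1. With library totals in place of TMM factors the median of all genes moved from 0.02 to 0.28, and the split became 19 higher and 17 lower, beside 9885 higher and 1259 lower over all genes (55% called). No gene called in males changed direction under that scaling, but Cyp2a12, Cyp2d10, Cyp2d22 and Cyp2d40 were no longer called. The count without the 2 MCD males that stood apart was again 35 (34.6% of all genes), with Cyp1b1 lost and Cyp2g1 added.

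Cyp2b9 was between 20.2 and 154 CPM in the 12 MCD males (median 74.0), where the control males had a median of 0.805 CPM. Only the 2 highest control males, 38.8 and 38.6 CPM, fell inside the MCD range. The log2 change in males was 4.48 ± 0.72 (adjusted p = 3.3e-05). The MCD males still lay below every control female, whose lowest value was 562 CPM. Cyp2b13 went from 0.342 ± 0.535 to 2.42 ± 1.36 CPM (SD, n = 12 each; 2.94 ± 0.53, adjusted p = 0.00011) and Cyp2b10 from 0.512 to 3.47 CPM (2.91 ± 0.62, adjusted p = 0.0006).

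Cyp2a4 rose from 30.3 to 290 CPM in males, a log2 change of 3.85 ± 0.57 (adjusted p = 1.2e-05), and by 4.56 without library a. The MCD males were uneven: the lowest had 18.9, the median 122 and the highest 1639 CPM, a value above every control female and from 1 of the 2 males that stood apart. Without those 2 the change was 3.19. Cyp2a5 rose from 259 ± 216 to 989 ± 748 CPM (2.06 ± 0.15, adjusted p = 1.8e-10). Cyp2a22 was 9.82 to 16.9 CPM in control and 26.0 to 96.4 CPM in MCD males, which did not overlap (as in 2 of the 48 and 0.78% of all genes; 2.25 ± 0.18, adjusted p = 1.0e-09). Cyp2c39 rose from 2.61 to 11.7 CPM (2.09 ± 0.17, adjusted p = 1.1e-09), Cyp2c38 from 36.4 to 90.0 CPM (1.28 ± 0.22, adjusted p = 6.8e-05) and Cyp2c55 from 2.43 to 5.4 CPM (1.15 ± 0.19, adjusted p = 4.4e-05).

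Cyp3a11, the main drug-metabolising Cyp3a enzyme of mouse liver, rose from 1162 ± 515 to 1937 ± 439 CPM in males (SD, n = 12 each; 0.74 ± 0.17, adjusted p = 0.0011). Library a held 2576 CPM, and without it the change was 0.92. Cyp3a59 rose from 19.9 to 45.3 CPM (1.28 ± 0.15, adjusted p = 3.9e-07). Cyp3a25 was called at 0.30 ± 0.12 (adjusted p = 0.049), and that call was lost in 27 of 36 fits without 1 library. Cyp1a1 rose from 2.45 to 3.85 CPM (0.63 ± 0.16, adjusted p = 0.0022), and Cyp1b1 from 0.552 to 1.06 CPM (0.91 ± 0.33, adjusted p = 0.027). The Cyp1b1 call was lost in 4 of 36 fits without 1 library (control CT12 number 1 and MCD CT4 number 1, CT12 number 2 and CT20 number 1), with 0.57 the lowest change of all 36. The 2 MCD males that stood apart had 3.80 and 2.67 CPM; the other 10 lay between 0.510 and 0.859 CPM, and without the 2 the change was 0.28 (adjusted p = 0.37).

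Cyp2d9 fell in males from 1327 ± 406 to 515 ± 220 CPM (SD, n = 12 each), a log2 change of -1.42 ± 0.30 (adjusted p = 0.00059; -1.57 without library a). The MCD males numbered 1 at CT4 and 2 at CT12 had 95 and 92.8 CPM, and the other 10 lay between 469 and 824 CPM; without these 2 the change was -1.17. No MCD male reached the lowest control male other than library a, 1010 CPM. Cyp2d12 fell from 23.8 to 10.9 CPM (-1.17 ± 0.33, adjusted p = 0.0061) and Cyp2u1 from 30.6 to 14.5 CPM (-1.18 ± 0.21, adjusted p = 7.0e-05).

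Larger falls were in the Cyp2c subfamily. Cyp2c67 went from 379 ± 103 to 110 ± 23.1 CPM (-1.76 ± 0.13, adjusted p = 5.5e-10), with the highest MCD male at 147 and the lowest control male at 150 CPM. Cyp2c69 went from 41.8 to 12.2 CPM (-1.78 ± 0.21, adjusted p = 6.0e-07), Cyp2c54 from 212 to 75.9 CPM (-1.57 ± 0.44, adjusted p = 0.006) and Cyp2c29 from 886 to 296 CPM (-1.57 ± 0.19, adjusted p = 4.3e-07). Cyp2c40 (-1.47 ± 0.15, adjusted p = 7.5e-08), Cyp2c23, an epoxygenase of arachidonic acid (315 to 148 CPM, -1.12 ± 0.11, adjusted p = 5.1e-08), and Cyp2c70, the muricholic acid synthase (468 to 231 CPM, -1.03 ± 0.15, adjusted p = 8.5e-06), fell as well. Cyp2j9 (-1.03 ± 0.20, adjusted p = 0.00019), Cyp2j5, another arachidonic acid epoxygenase (577 to 295 CPM, -0.97 ± 0.13), and Cyp2r1, the vitamin D 25-hydroxylase (13.6 to 8.48 CPM, -0.69 ± 0.11), fell too. Smaller changes were called for Cyp2d40, Cyp2d13, Cyp2d11, Cyp2f2, Cyp2j6, Cyp2d10, Cyp2d22 and Cyp2a12, all lower, from -0.67 to -0.29. Leaving out the control males numbered 1 at CT20 or b at CT8 ended the Cyp2d40 call.

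**Figure D2:**
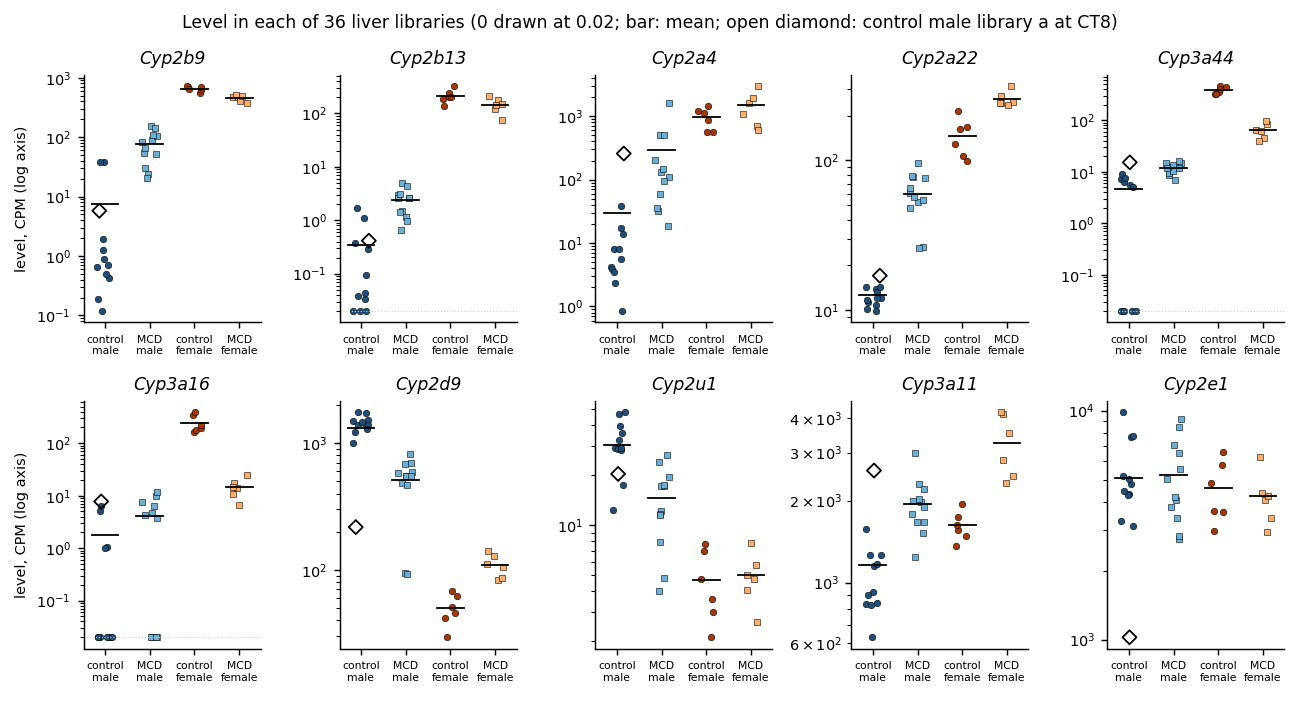
Level in CPM (log axis) of 10 P450 genes in each of the 36 liver libraries by diet and sex; each point is a library, bars are means, values of 0 are drawn at 0.02 and the open diamond is control male library a at CT8. The mean of the MCD males lies between those of control males and control females for Cyp2b9 and Cyp2d9, Cyp3a44 and Cyp3a16 are lower in MCD than in control females, and Cyp2e1 overlaps in all 4 groups.

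In females the MCD diet changed 21 of the 48, against 24.8% of all genes, raising 5 and lowering 16 (12.4% of all genes each way). The median log2 change was -0.26 over the 48. With library totals the median of all genes moved from 0.003 to 0.25 and the split became 7 higher and 13 lower, beside 5949 higher and 1073 lower over all genes (34.7% called): Cyp2a5 and Cyp3a59 were added as higher, and Cyp2a12, Cyp2c68 and Cyp2d22 were no longer called. The 5 that rose were Cyp3a11, Cyp2c55, Cyp1a1, Cyp2a22 and Cyp2d9. Cyp3a11 went from 1619 ± 200 to 3251 ± 838 CPM (SD, n = 6 each; 1.00 ± 0.24, adjusted p = 0.0033), and its lowest MCD female, 2320 CPM, lay above its highest control female, 1938 CPM. Cyp2c55 went from 1.99 to 7.05 CPM (1.69 ± 0.28, adjusted p = 7.8e-05), Cyp2a22 from 146 to 259 CPM (0.85 ± 0.24) and Cyp1a1 from 1.97 to 3.64 CPM (0.89 ± 0.22). Cyp2d9 went from 29.3 to 67.6 CPM in control females to 82.7 to 141 CPM in MCD females, without overlap (1.17 ± 0.43, adjusted p = 0.046), but that call was lost in 27 of 36 fits without 1 library.

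The falls in females were led by genes of the Cyp3a and Cyp2c subfamilies. Cyp3a16 fell from 249 ± 95.7 to 14.8 ± 6.16 CPM (SD, n = 6 each), a log2 change of -4.19 ± 1.34 (adjusted p = 0.023), and Cyp3a44 from 390 ± 60.4 to 66.7 ± 23.1 CPM (-2.64 ± 0.91, adjusted p = 0.036). Both were without overlap between the diets, as were 20 of the 48 and 11% of all genes in females, though the Cyp3a44 call was lost in 10 of 36 fits without 1 library and the Cyp3a16 call in 7. The Cyp3a16 change was -2.58 without the control female at CT4 and -6.25 without the MCD female at CT16. Cyp2c54 fell from 153 to 16.0 CPM (-3.26 ± 0.66, adjusted p = 0.00078), Cyp2c69 from 602 to 63.6 CPM (-3.20 ± 0.32, adjusted p = 1.7e-07) and Cyp2c40 from 634 to 137 CPM (-2.22 ± 0.22, adjusted p = 1.8e-07). Their highest MCD females, 27.3, 88.3 and 167 CPM, were below their lowest control females, 113, 362 and 548 CPM. Cyp2c70 (566 to 250 CPM, -1.28 ± 0.22, adjusted p = 0.00011), Cyp2j5 (496 to 227 CPM, -1.13 ± 0.18, adjusted p = 7.1e-05) and Cyp2d40 (96.0 to 46.0 CPM, -1.05 ± 0.34, adjusted p = 0.027) also fell by more than 1. The remaining falls, from -0.89 for Cyp2c67 to -0.31 for Cyp2a12, were those of Cyp3a13, Cyp2d13, Cyp2r1, Cyp2j6, Cyp2c68, Cyp2d22 and the 2 just named. The calls of Cyp2d22, Cyp2d40, Cyp2d13, Cyp2a12 and Cyp2c68 were lost in 23, 6, 5, 4 and 2 of the 36 fits without 1 library, among them in each case the one without the MCD female at CT16.

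The difference of the diet effect between the sexes was tested directly and called for 10 of the 48 genes, against 1.77% of all genes. In 7 the change was lower in females than in males (0.859% of all genes): Cyp2b9 (-5.56 ± 1.21, adjusted p = 0.015), Cyp2b13 (-3.52 ± 0.78, adjusted p = 0.018), Cyp2c39 (-2.31 ± 0.28, adjusted p = 3.3e-05), Cyp2a5 (-1.62 ± 0.25, adjusted p = 0.00059), Cyp2c69 (-1.42 ± 0.36, adjusted p = 0.042), Cyp2a22 (-1.41 ± 0.29, adjusted p = 0.01) and Cyp3a13. In 3 it was higher in females (0.914% of all genes): Cyp2d9 (2.59 ± 0.53, adjusted p = 0.0092), Cyp2c23 (1.08 ± 0.20, adjusted p = 0.0034) and Cyp2c67. Cyp2b9 was raised in males, while in females its change was -1.08 ± 0.89 (657 to 458 CPM, adjusted p = 0.42). Cyp2a5 was 775 CPM in control and 1158 CPM in MCD females (0.44 ± 0.20, adjusted p = 0.11), and Cyp2c23 157 and 147 CPM (-0.04 ± 0.16). The calls of Cyp2c69 and Cyp2c67 were lost in 27 and 26 of 36 fits without 1 library, and that of Cyp3a13 without the control females at CT8 or CT20. Without library a the count was 16, against 2.4% of all genes, with Cyp2a4 (-3.96, adjusted p = 0.0034, against -3.55 and 0.056 with it), Cyp3a44, Cyp2c29, Cyp3a59, Cyp2u1 and Cyp2d12 added. Without library a and the 2 MCD males that stood apart the count was 18, against 3.5% of all genes, with 7 higher and 11 lower in females; without the 2 MCD males alone it stayed at 10, against 2.27% of all genes, with Cyp2c67 lost and Cyp2c68 added.

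**Figure D3:**
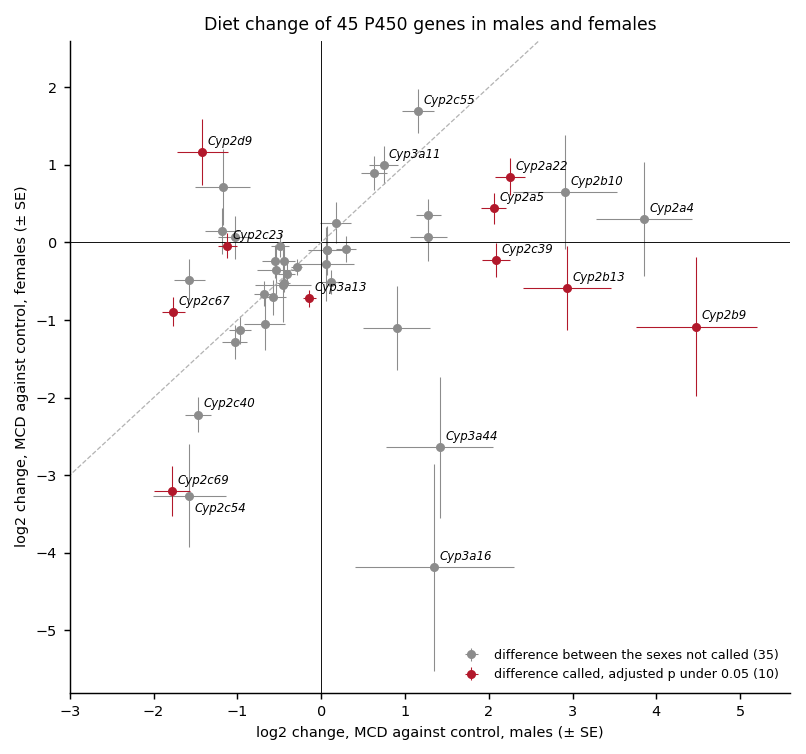
Log2 change on the MCD diet in females (vertical axis) against males (horizontal axis) for the 45 P450 genes with a mean of 1 CPM or more; bars are SE, the dashed line marks equal change and red marks the 10 genes whose change differed between the sexes. Cyp2b9 lies farthest to the right, at 4.48 in males and -1.08 in females, and Cyp2d9 lies at -1.42 in males and 1.17 in females.

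On the MCD diet 12 of the 48 genes were called between the sexes, against 2.23% of all genes: 9 higher in females (1.23% of all genes) and 3 higher in males (1% of all genes). This count depended on the libraries that stood apart: 16 were called without the 2 MCD males (8 each way, against 3.4% of all genes) and 27 without these and library a (14 and 13, against 6.95% of all genes). Cyp2c54, at -2.11 (adjusted p = 0.062), was -2.45 without the 2 (adjusted p = 0.0023), and Cyp2f2 went from -0.47 to -0.61 (adjusted p = 8.1e-05). Cyp2b13 (147 against 2.42 CPM, 5.98 ± 0.50, adjusted p = 2.4e-08) led the female genes, followed by Cyp2a4 (1491 against 290 CPM, 3.19 ± 0.63, adjusted p = 0.0045), Cyp2b10 (24.4 against 3.47 CPM, 2.95 ± 0.61, adjusted p = 0.0074) and Cyp2b9 (458 against 77.4 CPM, 2.67 ± 0.71, adjusted p = 0.045). Cyp2c69 (63.6 against 12.2 CPM, 2.46 ± 0.25, adjusted p = 4.4e-07), Cyp2a22 (259 against 60 CPM, 2.12 ± 0.20, adjusted p = 9.2e-08), Cyp2c40 (137 against 35.6 CPM, 1.97 ± 0.18, adjusted p = 5.4e-08), Cyp2c29 and Cyp3a11 (3251 against 1937 CPM, 0.76 ± 0.20, adjusted p = 0.048) completed them. The male genes were Cyp2d9 (-2.17 ± 0.41, adjusted p = 0.003), Cyp2d12 (2.75 against 10.9 CPM, -1.94 ± 0.45, adjusted p = 0.018) and Cyp2u1 (-1.44 ± 0.27, adjusted p = 0.0029). Cyp2c29, at 1055 CPM in control females and 886 CPM in control males, did not pass the test on the control diet (0.34 ± 0.22, adjusted p = 0.41) and was 775 against 296 CPM on MCD (1.43 ± 0.22, adjusted p = 0.00023). The difference between these 2 contrasts was not called with all libraries. It was called without library a, which held 207 CPM of Cyp2c29. Cyp3a44 was 66.7 CPM in MCD females and 12.0 CPM in MCD males (2.44 ± 0.72, adjusted p = 0.084). The Cyp3a11 call was lost in 28 and the Cyp2b9 call in 24 of 36 fits without 1 library. Leaving out the MCD female at CT0 ended the Cyp2b10 call, and leaving out that library, the MCD females at CT8 or CT20 or the MCD male numbered 2 at CT4 ended the Cyp2d12 call.

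Cyp2e1, Cyp1a2, Cyp2d26, Cyp2c50, Cyp2s1 and Cyp3a57 were called in no comparison. Cyp2e1 was 5062 ± 2365 CPM in control and 5241 ± 2150 CPM in MCD males (SD, n = 12 each), and the log2 change over both sexes was 0.01 ± 0.18, with a 95% interval from -0.34 to 0.36. Cyp1a2, which metabolises caffeine, had a change of 0.20 ± 0.15 (-0.09 to 0.49), Cyp2d26 of 0.01 ± 0.08 (-0.14 to 0.16) and Cyp2c50 of -0.49 ± 0.26 (-0.998 to 0.02). Cyp3a57 had 74 counts in 18 control and 421 counts in 18 MCD libraries, with none in 15 and 8 of them. Some of these 6 were called once libraries that stood apart were left out: Cyp1a2 for diet without the 2 MCD males (0.31, adjusted p = 0.037), and without library a as well Cyp2c50 for diet (-0.43, adjusted p = 0.0086) and Cyp2e1 for a 24 h rhythm on either diet. Cyp1a2 was also called with library totals (adjusted p = 0.0028).

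Averaged over the 6 times and both sexes, 34 of the 48 were called for diet, against 46.6% of all genes: 13 higher (25.3% of all genes) and 21 lower (21.2% of all genes). This fit, which also gives the single times, holds 1 sex term for both diets and so 1 change for both sexes. All 3 Cyp2b genes are among the 13, yet none of them was called in females. There Cyp2b9 went from 657 to 458, Cyp2b13 from 216 to 147 and Cyp2b10 from 17.5 to 24.4 CPM. Library totals gave 16 higher and 15 lower, beside 10633 higher and 1540 lower over all genes (60.1% called). Cyp2d34, at 5.93 and 4.17 CPM in control and MCD males and 4.03 and 3.13 CPM in the females, was called in this average (-0.48 ± 0.18, adjusted p = 0.027) and in neither sex alone. At single times the counts were 10 at CT0, 19 at CT4, 15 at CT12, 11 at CT16 and 9 at CT20, where 12.6%, 18.2%, 15.2%, 12.5% and 11.3% of all genes were called. At CT8 edgeR called none of the 48 and 1.3% of all genes. There 10 of the 48 had an unadjusted p under 0.05, as had 2550 of all 20249 genes. DESeq2 called 6 there (3.21% of all genes), and edgeR 6 without library a (5.86%). These counts rest on 3 libraries a group and moved with the libraries that stood apart. Without the 2 MCD males they were 10, 10, 3, 6, 12 and 12 from CT0 to CT20, where 14.5%, 10.9%, 1.87%, 6.99%, 15.3% and 14.2% of all genes were called. Without these and library a they were 18, 18, 13, 12, 16 and 17, where 18.7%, 14.8%, 9.32%, 11.4%, 20.2% and 18.6% of all genes were called. With library totals the count at CT20 was 15 (17.6% of all genes), and with DESeq2 it was 16 (15.6% of all genes). Over the 6 times 26 genes were called at 1 or more (35.3% of all genes). Without the 2 MCD males that stood apart this count was 16, with no share of all genes given for that fit. With all libraries in, Cyp2c40, Cyp2c67, Cyp2c69 and Cyp2j5 were called at 5 of 6 times, each at all but CT8. The sign of the change was the same at all 6 times for 32 of the 48 genes and for 32.2% of all genes.

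A 24 h rhythm was called for 6 of the 48 on the control diet, against 17.8% of all genes, and for 5 on MCD, against 28.2%. These counts come from the fit with 1 sex term for both diets, while the diet effect differed between the sexes for 10 of the 48 (1.77% of all genes). The part of this in the rhythm counts was not tested. Without the 2 MCD males that stood apart the counts were 8 and 5, against 20.7% and 26.3% of all genes, and without these and library a 11 and 9, against 20.9% and 30.4% of all genes. Cyp2a5, called on both, had a wide cycle. Its mean over 3 libraries ran from 125 ± 140 CPM at CT0 to 844 ± 435 CPM at CT12 on control and from 251 ± 74.6 CPM at CT0 to 1940 ± 534 CPM at CT8 on MCD. The fitted peaks were at CT 11.1 h and 9.69 h, with peak to trough ratios of 8.47 (adjusted p = 2.0e-05) and 8.86 (adjusted p = 8.1e-06). Cyp2a4 was called on MCD, with a peak at 9.99 h and a ratio of 19.1 (adjusted p = 0.017), and not on control (adjusted p = 0.094); leaving out the number 2 MCD males at CT8 or CT12 ended the MCD call, as did leaving out both MCD males that stood apart (adjusted p = 0.076). The difference of the Cyp2a4 rhythm between the diets was not called (adjusted p = 0.95).

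Cyp3a13 peaked at 15.3 h on control and 17.8 h on MCD with small ratios, 1.64 and 1.63. Cyp3a25 (9.77 h, ratio 1.99, adjusted p = 0.0037) and Cyp3a59 (9.56 h, ratio 2.39, adjusted p = 0.012) were called on control and had ratios of 1.03 and 1.06 on MCD. For neither was the difference between the diets called (adjusted p = 0.082 and 0.14). Cyp2g1 was called on control (8.36 h, adjusted p = 0.027) and lost without the CT8 libraries b or female or the CT20 males numbered 1 or 2. With the replicate number as a block the control calls of Cyp2g1 (adjusted p = 0.07) and Cyp3a59 (0.1) were lost, and that of Cyp2g1 also with limma voom (0.062). Cyp2c70 was called on MCD, with a peak at 23.1 h and a ratio of 2.13.

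Cyp2c55 was called on both diets and was the 1 gene of the 48 called for a difference of rhythm, against 4.87% of all genes. On MCD it was near its highest at CT0 and CT4, 8.48 ± 2.19 and 8.59 ± 1.52 CPM (SD, n = 3), and 3.51 ± 2.02 CPM at CT12. On control it lay between 1.5 and 2.54 CPM at the 5 times other than CT8, where the mean was 4.10 ± 2.63 CPM with library a at 7.13 CPM. The adjusted p was 0.036 for the control rhythm (0.17 without library a), 0.0014 for the MCD rhythm and 0.024 for the difference (0.042 without library a). The control call was lost in 10 of 36 fits without 1 library (library a and each library at CT4, CT16 and CT20), with the replicate block (0.32) and with limma voom (0.16). The difference was lost without the MCD female at CT20 (0.052), with library totals (0.051), limma voom (0.051) or the replicate block (0.079), and without all libraries numbered 1 (0.29) or 2 (0.14). Without the 2 MCD males that stood apart Cyp2r1 was called for a difference as well, against 5.83% of all genes, and without library a too also Cyp2d13, against 7.3%.

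**Figure D4:**
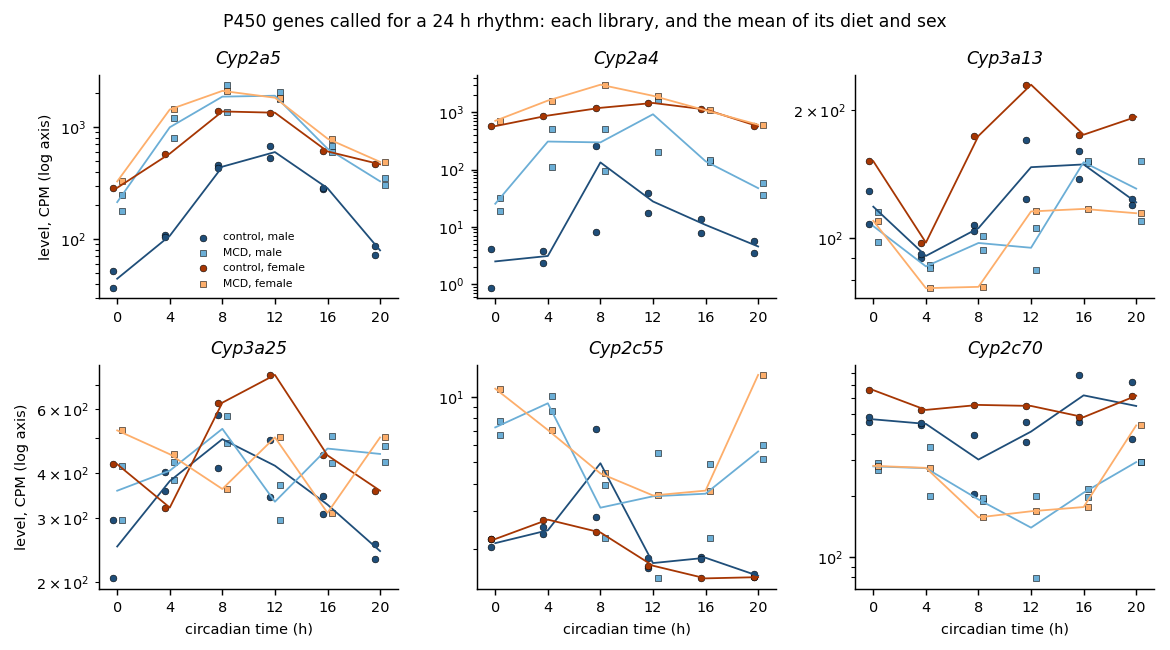
Level in CPM (log axis) against circadian time in h for 6 P450 genes called for a 24 h rhythm on 1 or both diets; points are libraries (circles control, squares MCD, blue males, orange females) and lines join the means of a diet and sex. Cyp2a5 is highest at CT8 and CT12 on both diets, and Cyp2c55 on MCD is lowest from CT8 to CT16.

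Several genes of 1 subfamily had similar profiles over the 12 group means of log2 CPM. Pearson's r was 0.99 for Cyp2c40 with Cyp2c67 and for Cyp2c40 with Cyp2c69, 0.99 for Cyp2d10 with Cyp2d11, 0.96 for Cyp2a4 with Cyp2a5 and 0.96 for Cyp3a44 with Cyp3a16. Cyp2d9 was most like Cyp2c54 (r = 0.99), Cyp3a44 most like Cyp2j6 (r = 0.97), and Cyp2b9 had no partner above 0.69. These are descriptions over 12 points that share diets, times and libraries. Some of these genes also share sequence: of all stretches of 75 bases in the transcripts of Cyp2c40, 57.1% also occur in another gene, as do 43.2% for Cyp2c69, 36% for Cyp2c67, 28.5% for Cyp2c68, 26.7% for Cyp2d10, 25.5% for Cyp2a5 and 22.1% for Cyp2a4. The sources at hand do not say how reads matching several genes were counted, and the values of these genes are uncertain to that extent.

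Genes that control or serve the P450s were counted from fixed lists by the same diet test, which called 46.6% of all genes; the counts are to be read against that share. Of 17 receptors and factors of P450 transcription 2 rose and 5 fell. Ahr, the aryl hydrocarbon receptor, rose by 0.64 ± 0.09 (35.3 to 60.0 CPM in males), and Nr3c1, the glucocorticoid receptor, fell by 0.48 ± 0.05, while Nr1i2 (PXR) had -0.09 ± 0.07 and Nr1i3 (CAR) 0.32 ± 0.17. Of 9 genes of growth hormone signalling and sex pattern 1 rose and 5 fell. Ghr, the growth hormone receptor, went from 570 to 282 CPM in males and from 445 to 233 CPM in females (-0.997 ± 0.118, adjusted p = 1.5e-07), and Onecut1 fell by 1.46 ± 0.27. Cux2, a repressor found in female liver, was 0.913 and 4.43 CPM in control and MCD males and 72.9 and 26.1 CPM in control and MCD females, and its change differed between the sexes (adjusted p = 0.012). Bcl6, a repressor found in male liver, was 36.4 and 13 CPM in males and 13 and 12.4 CPM in females.

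Of the 6 electron transfer partners Por rose by 0.51 ± 0.14 and the other 5 fell, Cyb5r3 most (-0.98 ± 0.08). In haem synthesis 2 of 8 genes fell, Ppox most (-0.45 ± 0.05), and Alas1, the rate-limiting enzyme, was not called (0.44 ± 0.21, adjusted p = 0.079). Of 12 other targets of CAR and PXR 8 rose and 1 fell: Gadd45b rose by 3.48 ± 0.26 and Gstm1 by 1.23 ± 0.12, and Ces2a fell by 1.48 ± 0.12. Of 4 other targets of the aryl hydrocarbon receptor 2 rose, Nqo1 (1.23 ± 0.18) and Ugt1a6a (0.31 ± 0.10). Of the 4 genes Dbp, Tef, Hlf and Nfil3 only Tef changed with diet (-0.42 ± 0.09), and 4 were rhythmic on control and 3 on MCD (17.8% and 28.2% of all genes). Of 9 acute phase and cytokine genes 5 rose and 1 fell, with Lcn2 at 4.28 and 61.0 CPM in males and 17.4 and 19.9 CPM in females. In males alone 7 rose and 1 fell (39.6% of all genes called), and in females 1 rose and 3 fell (24.8%). The change differed between the sexes for 3 of the 9 (1.77% of all genes).

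Markers of cell types were counted in the same way, against the same 46.6% of all genes; apart from the macrophage and red cell lists, no list had more than 50% of its genes called. Of 9 macrophage markers 8 rose, Trem2 most (2.39 ± 0.32), and their sum was 282 to 691 CPM in control males, 377 to 829 CPM in MCD males, 403 to 644 CPM in control females and 457 to 615 CPM in MCD females. Of 7 stellate cell genes 3 rose, of 6 endothelial genes 3, of 5 cholangiocyte genes 1 and of 5 lymphocyte and neutrophil genes 2. Of 5 red cell genes 4 fell, and none of 3 neuronal genes was called. Among hepatocyte genes 4 of 8 fell, of 6 pericentral genes 1 rose and 1 fell, and of 6 periportal genes 3 fell. The counts leave out markers that the count table does not list: Gpnmb (macrophage), Col1a1 (stellate cell), Ly6g (neutrophil), and Avp and Vip (neuron). No marker that it lists was at 0 in all libraries. The part of cell makeup in the P450 changes was not tested.

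The 31 P450s outside the rule were called for diet in 15 cases, 5 higher and 10 lower (48.4%, against 46.6% of all genes), and for sex on control in 13 (41.9%, against 9.87%). Cyp3a41a and Cyp3a41b were 1429 and 1257 CPM in control females and 271 and 236 CPM in MCD females, with changes of -2.72 ± 1.43 and -2.75 ± 1.62 that were not called (adjusted p = 0.18 and 0.24). The male genes Cyp4a12a (175 to 32.9 CPM, -2.55 ± 0.33) and Cyp7b1 (155 to 34.1 CPM, -2.24 ± 0.34) fell in males.

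The suprachiasmatic nucleus of the same design, counted in a separate table of 15759 genes, listed 8 of the 48. Cyp2j9 lay between 36.1 and 79.6 CPM there and averaged 5.57 CPM in liver, and Cyp2s1 averaged 3.58 CPM there and 0.310 CPM in liver. Cyp2d22 (26.4 CPM on average) and Cyp2j6 (21.7 CPM) were expressed in both, and Cyp2u1, Cyp2a5, Cyp2f2 and Cyp1b1 averaged 7.18 CPM or less there. The 2 tables were scaled separately, so these levels are set side by side without a test.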

How the data were processed

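Gene counts per library were deposited by the authors as raw counts. Per the submitters' processing notes, Trimmomatic, HISAT2, StringTie and DESeq2 were used on build GRCm39; no source at hand names versions, the counter or the annotation release. Columns were matched to samples by name, and the 2 control male columns at CT8 that share a name were used as replicates without a number.

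The 20249 genes that passed filterByExpr (minimum count 10) were fitted with edgeR 4.0.16 (TMM factors, robust quasi-likelihood F test, R 4.3.3). One model held the 12 groups of diet and time plus sex, and gave the diet contrasts and the 24 h cosine and sine contrasts. A second held sex within diet and gave the sex contrasts, the diet contrasts by sex and their difference. P-values were adjusted by Benjamini-Hochberg over all genes tested. Standard errors were the log2 change divided by the root of F. Levels are TMM-scaled CPM; exon lengths and shared 75-base stretches came from GENCODE M21 (47 of 48 genes matched by ID). The scripts were tested on simulated data. Alternatives were DESeq2 1.42.0, limma 3.58.1 voom, other scalings, no filter, a library-class term, a replicate block and each library left out; 2 fits without libraries that stood apart were added after the data were seen. The diet contrasts average per-time changes, so they need not equal the ratio of means. Every member with a mean of 1 CPM or more is named; full statistics go to the leading gene of each subfamily and to genes called with a change of 1 or more. The genes and lists were chosen with earlier results of these data known. Exon-level files were not used here.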

Additional observations from a re-analysis of the deposited data

Results flagged for a closer look

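These P450 genes had a diet effect that differed between the sexes by the test of the difference itself (female minus male log2 change): Cyp2b9 at -5.56, Cyp2b13 at -3.52, Cyp2c39 at -2.31, Cyp2a5 at -1.62, Cyp2c69 at -1.42, Cyp2a22 at -1.41, Cyp3a13 at -0.58, Cyp2d9 at 2.59, Cyp2c23 at 1.08 and Cyp2c67 at 0.87. Cyp2c55 had a 24 h rhythm that differed between the diets, with an amplitude of 1.03 for the difference on the log2 scale. This call was lost with library totals, limma voom and the replicate block. With library totals 1 other gene of the 48 was called for a rhythm difference (3.75% of all genes). The calls of Cyp2c69, Cyp2c67 and Cyp3a13 were lost in some fits without 1 library. Groups of 3 libraries were not tested for single outlying libraries.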

How the results depend on the processing

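The counts of called genes moved most when libraries were removed. With 1 library or all libraries of 1 replicate number left out, the genes called for diet on average ran from 21 to 35, in males from 19 to 36, in females from 14 to 21, and at 1 or more times from 2 to 28. For sex they ran from 22 to 28 on control and from 5 to 17 on MCD, and for the difference between the sexes from 1 to 16. For the 24 h rhythm they ran from 1 to 6 on control, from 1 to 6 on MCD and from 0 to 2 for the difference. The lowest counts came from dropping all libraries numbered 1 or 2, which leaves 1 male in most groups: without number 2 the counts were 21 for diet, 19 in males, 8 at single times, 5 for sex on MCD and 1 for the difference between the sexes, and without number 1 they were 2 at single times, 5 for sex on MCD, 6 for the difference between the sexes and 1 for either rhythm. Of single libraries, 3 moved any of these counts by more than 1.5 times: control CT8 library a (16 for the difference between the sexes) and the control and MCD females at CT20 (2 and 0 for the rhythm difference). Dropping number 3 leaves no females, so the sex results have no such value. DESeq2 called 19 genes for the difference between the sexes (main 10), where the share of all genes was 3.66% (main 1.77%). It called 2 for the rhythm difference (main 1), where the share of all genes was 10.2% (main 4.87%). For that difference limma voom called 0, and it called 9 rhythms on MCD (main 5), with no share of all genes given for limma voom. The Cyp2b13 change averaged over the sexes was 1.35 and reversed to -0.0919 with limma voom; the cause was not tested. With the replicate block (34 libraries) the counts were 32 for diet, 35 in males, 21 in females, 26 and 12 for sex, 11 for the difference between the sexes and 0 for the rhythm difference. The numbers did not meet the rule for pairing: deviations of numbers 1 and 2 correlated above 0.1 in 12 of 55 pairs of groups, with a median of -0.02. Since Xist and, in control males, Cyp3a44 and Cyp3a16 split by number, the numbers may still mark something shared, which was not tested. Calls lost under the block are not read as weaker effects. Chosen after the data were seen, leaving out the 2 MCD males that stood apart gave 8 control rhythms (20.7% of all genes), 2 rhythm differences (5.83%) and 16 genes at single times (no share given). Leaving out library a too gave 27 for sex on MCD (6.95% of all genes) and 18 for the difference between the sexes (3.5%). It also gave 11 and 9 rhythms on control and MCD (20.9% and 30.4%) and 3 rhythm differences (7.3%). Genes below 1 CPM rest on few counts per library. In control males Cyp3a44 and Cyp3a16 ranged from 0 counts to 1560 and 788, the highest in library a.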
